A study of Mus musculus with 20 samples.

Results

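The type I interferon response genes are described here as 9 genes, Ifit1, Ifit2, Ifit3, Isg15, Irf7, Usp18, Oasl2, Rsad2 and Rtp4, taken by symbol from the 46078 genes of the count table. All 9 had 1 row in the table and all 9 passed the filter on low counts. Type I interferons are secreted proteins that bind a receptor built of IFNAR1 and IFNAR2 on almost every cell. The receptor activates JAK1 and TYK2, and transcription factors then bind interferon-stimulated response elements and switch on genes that block viruses, conjugate ISG15 to other proteins, or damp the signal. In adipose tissue, both adipocytes and macrophages can respond to interferon, and obesity brings macrophages into the depot.

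The values came from TRAP–seq, in which a GFP-tagged ribosomal protein marks the ribosomes of one cell type, so that the mRNA on them can be pulled down from a whole-tissue lysate. Epididymal adipose tissue (epiAT) came from AdipoERCre x NuTRAP mice on a background that the labels write as C576BL6 and the study's methods as C57BL/N. All of them had received tamoxifen as young mice, the chow controls included. Cre is driven by the Adiponectin promoter and becomes active with tamoxifen, so cells that became adipocytes after the tamoxifen was gone do not carry the tag by design. Each library was 1 mouse. In the short arm, C mice ate a low-fat chow and H mice a high-fat diet (HFD) for 12 weeks, and both were 18 weeks old. HC mice had 12 weeks of HFD followed by 8 weeks of a standard chow for weight loss (WL). CC_s mice went from the low-fat chow to the same standard chow, per the study's methods, and both groups were 26 weeks old. These 4 groups had 3 mice each. In the long arm, CC_l mice ate the low-fat chow and HH mice HFD for 25 weeks, and both were 31 weeks old. HHC mice had 25 weeks of HFD and 8 weeks of the standard chow. CCC mice went from the low-fat to the standard chow, and both groups were 39 weeks old. These 4 groups had 2 mice each. The labels name the libraries of the 2 arms with different prefixes, whose meaning they do not state, and the chow group of the same age and arm served as control throughout.

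The 20 libraries held 10710277 to 36738954 counts on genes. All 8 adipocyte markers were counted in every library, and their sum ran from 10500 to 121000 CPM (counts scaled to a common library size). Part of this spread lay within groups. The sum was 19700, 18100 and 121000 CPM in C, 70000, 70000 and 13500 CPM in HC, and 59400 and 10500 CPM in CCC. The CC_l mice were closest together, at 47200 and 46800 CPM. Macrophage markers were present too. All 13 had counts in every library, with a sum of 257 to 5320 CPM. HHC replicate 1 stood apart from the other 19 libraries. It was the shallowest library and had the highest value for 7 of the 9 genes, so the counts, medians and calls of the 9 genes in HHC are given with and without it. CC_l replicate 1 held spermatid genes at a sum of 3110 CPM, against 0.127 to 433 CPM in the others, and the count, the median and the calls of the 9 genes in HH are given with and without it. A pull-down from bulk tissue cannot tell fewer responding cells from less mRNA per cell.

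Of the 9 genes, 7 had a promoter window in the RefSeq set used (GRCm38.p6, 250 bases before to 50 after the gene start). The windows were searched on both strands for GAAANNGAAA, the core shared by interferon-stimulated response elements. It was found in Isg15, Rsad2, Ifit3 and Ifit1, 4 of 7 genes (57.1%), against 3.99% of all 27025 genes with a window (3.44% of all 32851 windows). Of the other interferon-stimulated genes listed below, 15 of 32 with a window held it (46.9%), as did 8 of 15 genes of the interferon gamma response (53.3%) and 0 of 8 macrophage markers. The stretches that hold it are printed 5′ to 3′ on the gene's strand, with the matching bases in capitals, because they carry what these genes share in sequence.
Isg15: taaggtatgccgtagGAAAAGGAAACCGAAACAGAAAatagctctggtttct
Rsad2: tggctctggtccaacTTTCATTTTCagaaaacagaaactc
Ifit3: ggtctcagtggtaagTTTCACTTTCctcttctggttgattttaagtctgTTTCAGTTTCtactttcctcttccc
Ifit1: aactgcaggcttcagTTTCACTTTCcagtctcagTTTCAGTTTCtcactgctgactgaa
The Isg15 stretch (chr4:156200860-156200911, minus strand) held 3 overlapping matches that ran from 78 to 57 bases before the gene start. Rsad2 (chr12:26456548-26456587, minus strand) had 1 match, read from the opposite strand, 120 to 111 bases before the start. Ifit3 (chr19:34583358-34583431) and Ifit1 (chr19:34640770-34640828) had 2 matches each, also read from the opposite strand, the first of them 156 and 104 bases before the start. No match lay in the windows of Ifit2 (2 starts), Oasl2 or Irf7. The shorter core GAAANNGAA gave the same 4 genes and was held by 9.76% of all genes (8.56% of all windows).

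CPM values are given after TMM scaling, which corrects each library for its composition. Per kilobase of exon, the mean over the 20 libraries was highest for Ifit3, at 18.1 ± 6.8 CPM per kb (SD, n = 20). Rsad2 followed with 9.57 ± 6.08 and Rtp4 with 8.97 ± 6.39 CPM per kb. Usp18, Isg15, Ifit1 and Irf7 lay close together at 5.17, 4.25, 4.07 and 3.91 CPM per kb, and Ifit2 and Oasl2 were lowest, at 2.26 and 1.67 CPM per kb. The spread within a gene was wide. Isg15 had the widest range, 37.8-fold from the lowest to the highest library, and Usp18 the narrowest, 2.91-fold.

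**Figure D1:**
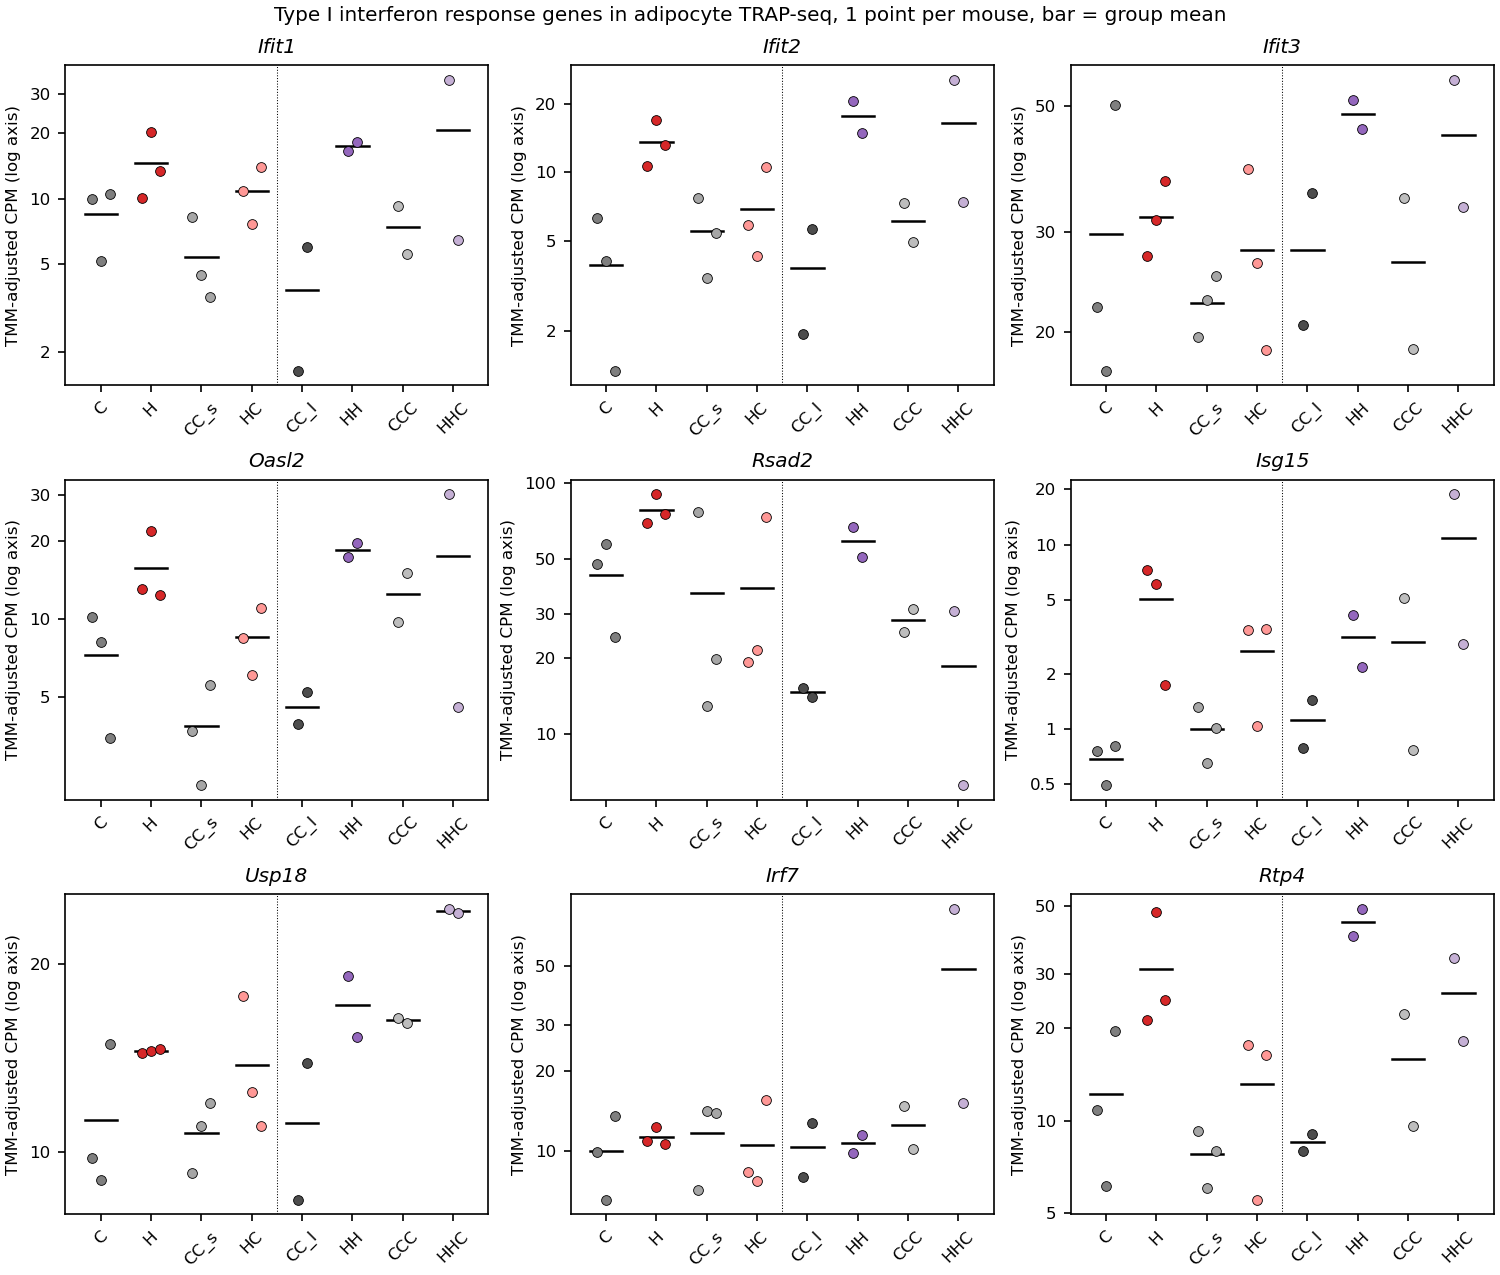
TMM-adjusted CPM (log axis) of the 9 type I interferon response genes in the 8 groups, 1 point per mouse and a bar at the group mean, with the short arm left and the long arm right of the dotted line. HHC replicate 1 is the highest point for all genes but Rsad2 and Rtp4, and for Irf7 the other 19 mice lie between 6.55 and 15.6 CPM.

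A gene was called changed with the cut-offs of the study, a nominal p below 0.01 and a log2 fold change of 1 or more in size, in edgeR's quasi-likelihood test. The Benjamini-Hochberg adjusted p over all 21464 genes tested is given beside the called fold changes of the 9 genes and some others. The p-values measure the spread between mice. After 12 weeks of HFD, Isg15 and Ifit2 rose in H against C, 2 of the 9 genes, where 3.57% of all genes were called higher. None of the 9 passed an adjusted p under 0.05 in edgeR (2.12% of all genes did), 3 had a nominal p under 0.05 (17.1% of all genes), and 1 passed the adjusted threshold in DESeq2 (9.44%). In 5 of the 9 the H mice all lay above the C mice, where 13.4% of all genes did so. All 9 log2 fold changes were positive, with a median of 0.86 against -0.15 over all genes. After 25 weeks, Ifit1, Ifit2 and Rtp4 rose in HH against CC_l, 3 of 9, where 4.92% of all genes were called higher. Again none passed the adjusted threshold in edgeR (2.07% of all genes did), 5 had a nominal p under 0.05 (17.4%), and 3 passed it in DESeq2 (8.93%). The HH mice lay above both CC_l mice in 8 of the 9, against 26.4% of all genes. All 9 log2 fold changes were positive here too, and their median was 1.99 against -0.23 over all genes. The all-gene median was 0 without CC_l replicate 1. Without CC_l replicate 1, 0 of 9 were called and the median was 1.54, with 8 of 9 positive.

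After WL, calls were few. In HC against CC_s, edgeR called 0 of the 9 (1.57% of all genes were called higher and 0% passed the adjusted threshold), and 0 had a nominal p under 0.05 (8.69% of all genes). DESeq2 called 0 as well, and 0 passed its adjusted threshold (1.26% of all genes). The HC mice lay above all CC_s mice in 1 gene, Oasl2, where 8.00% of all genes did so, and 8 of 9 log2 fold changes were positive, with a median of 0.36 against 0.27 over all genes. The median was 0.91 (all genes 0.26) without CC_s replicate 1 and 0.53 (all genes 0.07) without HC replicate 3. In HHC against CCC, Irf7 was called higher, 1 of 9, where 0.447% of all genes were called higher and 0% passed the adjusted threshold. At an adjusted p under 0.05, edgeR called 0 of the 9 and DESeq2 1 (2.06% of all genes), and 1 of the 9 had a nominal p under 0.05 in edgeR (10.7% of all genes). The HHC mice lay above both CCC mice in Ifit2, Irf7 and Usp18, 3 of 9, against 8.49% of all genes. The median was 0.74 against -0.06 over all genes, and the all-gene median was -0.23 without HHC replicate 1. Without HHC replicate 1, 0 of 9 were called, 5 of 9 were positive and the median was 0.19.

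**Figure D2:**
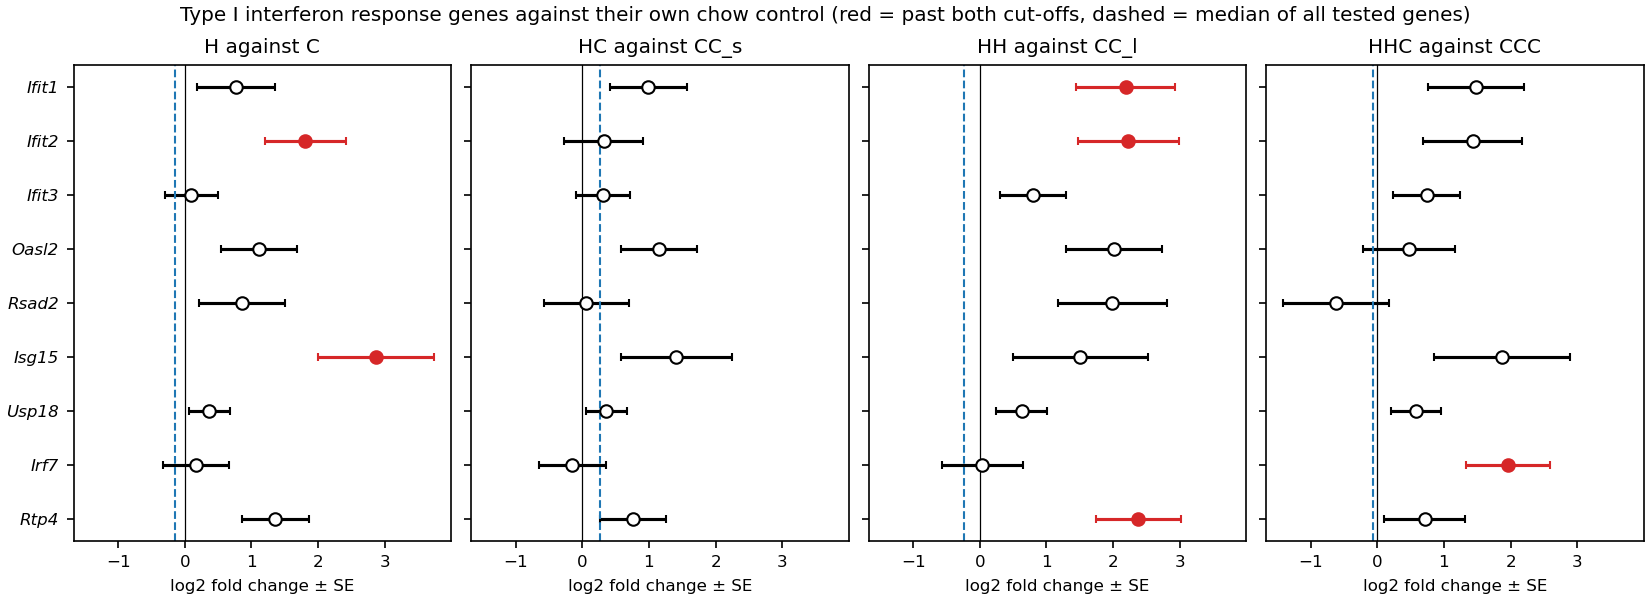
Log2 fold change ± SE of the 9 genes in each HFD or WL group against its own chow control, with genes past both cut-offs in red and the median of all tested genes as a dashed line. In H and HH all 9 points lie above 0, Isg15 reaches 2.87 in H and Rtp4 2.38 in HH, and in HC no gene is red.

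The Ifit genes encode proteins that bind viral RNA and block its translation. They lie side by side on chromosome 19 (mm10). Ifit1 (chr19:34640871-34650009, plus strand) stood at 9.91, 5.16 and 10.5 CPM in the C mice and at 10.1, 20.1 and 13.3 CPM in the H mice, and at 8.21, 4.50 and 3.55 CPM in CC_s and 10.8, 7.63 and 13.9 CPM in HC. The groups overlapped in both pairs. In the long arm it stood at 1.64 and 6.02 CPM in CC_l and at 16.5 and 18.2 CPM in HH, and at 9.20 and 5.60 CPM in CCC and 34.8 and 6.46 CPM in HHC. Both HH mice lay far above both CC_l mice, and 1 HHC mouse lay above all others while its group mate fell within the CCC range. Ifit1 rose in HH (log2 fold change 2.19 ± 0.74 SE, adjusted p = 0.137 by edgeR). It was higher by 0.77 ± 0.58 on the log2 scale in H (adjusted p = 0.527 by edgeR), by 0.99 ± 0.58 in HC and by 1.48 ± 0.72 in HHC, none of them called. Without HHC replicate 1 the last value was -0.20. The HH value ran from 1.54 without CC_l replicate 1 to 3.42 without CC_l replicate 2, and only the latter was past the cut-offs.

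Ifit2 (chr19:34550694-34576419, plus strand) was the gene called in both HFD groups. It measured 6.31, 4.07 and 1.34 CPM in C and 10.7, 17.0 and 13.2 CPM in H, so that every H mouse lay above every C mouse. The log2 fold change was 1.81 ± 0.61 (adjusted p = 0.136 by edgeR). It stayed past the cut-offs only without C replicate 1 when each of the 6 mice was left out in turn, with values of 1.39 to 2.35. HC mice had 5.84, 4.26 and 10.5 CPM beside 7.68, 3.44 and 5.39 CPM in CC_s, so that the groups overlapped, and the log2 fold change was 0.32 ± 0.59. The long arm gave 1.95 and 5.63 CPM in CC_l and 20.5 and 14.9 CPM in HH, a log2 fold change of 2.23 ± 0.76 (adjusted p = 0.137 by edgeR) that was kept past the cut-offs only without CC_l replicate 2, where it was 3.21. CCC mice had 7.29 and 4.94 CPM and HHC mice 25.5 and 7.43 CPM, so that the groups separated by little for the second HHC mouse, and the log2 fold change of 1.43 became 0.28 without the first.

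Ifit3 (chr19:34583531-34588731, plus strand), the partner that binds to IFIT1, was the most even of the Ifit genes. Of its 50-base words, 51.2% also occur in its neighbour copy Ifit3b, so its counts are uncertain. It stood at 22.1, 17.1 and 50.1 CPM in C and 27.2, 31.5 and 36.9 CPM in H, and at 19.6, 22.8 and 25.1 CPM in CC_s and 38.7, 26.5 and 18.6 CPM in HC. Here 1 C mouse was higher than all H mice, and the groups overlapped in both pairs. CC_l mice had 20.6 and 35.1 CPM, HH mice 51.3 and 45.5 CPM, CCC mice 34.4 and 18.7 CPM, and HHC mice 55.6 and 33.2 CPM. The HH mice were both above the CC_l mice, with a log2 fold change of 0.80 ± 0.50 that was not called. Ifit3b itself stood at 2.83 to 14.3 CPM over the 20 libraries.

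Oasl2 and Rsad2 encode antiviral effectors. Oasl2 (chr5:114896936-114912234, plus strand), an oligoadenylate synthetase-like protein, measured 10.2, 8.18 and 3.49 CPM in C and 13.1, 21.8 and 12.4 CPM in H, with no overlap. It was also the only one of the 9 genes whose HC mice (8.48, 6.10 and 11 CPM) all lay above the CC_s mice (3.71, 2.29 and 5.58 CPM). The log2 fold changes were 1.11 ± 0.57 in H and 1.15 ± 0.57 in HC, and neither was called (adjusted p = 0.33 and adjusted p = 0.579 by edgeR). HH mice had 17.4 and 19.6 CPM against 3.95 and 5.24 CPM in CC_l, a log2 fold change of 2.01 ± 0.72 that missed the cut-off (adjusted p = 0.158 by edgeR). In HHC the mice parted, at 30.3 and 4.58 CPM, 1 above and 1 below the CCC mice (9.79 and 15.1 CPM), and the log2 fold change was 0.48, or -1.45 without HHC replicate 1.

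Rsad2 (chr12:26442746-26456452, minus strand) encodes viperin, an enzyme of lipid droplets and the endoplasmic reticulum that makes an antiviral nucleotide. Its values were 47.6, 57.2 and 24.4 CPM in C and 69.5, 90.3 and 75.5 CPM in H, and every H mouse lay above every C mouse, although the log2 fold change of 0.86 ± 0.65 was not called. In CC_s they were 76.8, 12.9 and 19.9 CPM and in HC 19.4, 21.6 and 73.5 CPM, with 1 high mouse in each group. HH mice had 66.6 and 50.8 CPM against 15.3 and 14.1 CPM in CC_l, a log2 fold change of 1.99 ± 0.82 (adjusted p = 0.224 by edgeR, not called). CCC mice had 25.6 and 31.4 CPM and HHC mice 31.0 and 6.25 CPM, and Rsad2 alone among the 9 had a negative log2 fold change in HHC, at -0.62 ± 0.79. HHC replicate 1 ranked 11 of 20 for Rsad2 and 4 for Rtp4, and first for the other 7 genes.

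Isg15 encodes a ubiquitin-like protein that is attached to other proteins, and Usp18 the protease that takes it off again and also blocks the receptor. Isg15 (chr4:156199424-156200818, minus strand) had few counts in the C mice. The C mice had 14, 10 and 18 counts, or 0.762, 0.496 and 0.806 CPM, and the H mice 192, 226 and 36 counts, or 7.30, 6.14 and 1.73 CPM. All H mice lay above all C mice, 2 of them by far, and the log2 fold change of 2.87 ± 0.87 (adjusted p = 0.0957 by edgeR) was the largest of the 9 in H. Without 1 mouse it ran from 2.51 to 3.28 and stayed past the cut-offs only without H replicate 3. In HC, 2 mice (3.44 and 3.47 CPM) lay above the CC_s mice (1.32, 0.655 and 1.01 CPM) and 1 (1.04 CPM) among them, with a log2 fold change of 1.41 ± 0.83 (adjusted p = 0.624 by edgeR). CC_l mice had 0.791 and 1.44 CPM, HH mice 4.15 and 2.18 CPM, CCC mice 5.14 and 0.768 CPM, and HHC mice 18.8 and 2.91 CPM. HH lay above CC_l without a call (1.51 ± 1.01), and the HHC log2 fold change of 1.87 went to -0.03 without HHC replicate 1.

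Usp18 (chr6:121245906-121270917, plus strand) shares 124 exon bases with Gm44148 on the other strand, and the sources used here do not state the strand setting. Usp18 moved least between libraries. It measured 9.80, 9.03 and 14.9 CPM in C against 14.4, 14.5 and 14.6 CPM in H, and 9.26, 11 and 12 CPM in CC_s against 17.8, 12.5 and 11 CPM in HC. The groups overlapped in both pairs. In the long arm the values were 8.40 and 13.9 CPM in CC_l, 19.1 and 15.3 CPM in HH, 16.4 and 16.1 CPM in CCC, and 24.5 and 24.1 CPM in HHC. Usp18 was the only gene for which the HHC mice gave nearly the same value, both above all 18 mice of the other groups. The log2 fold change in HHC was 0.58 ± 0.38 (adjusted p = 0.611 by edgeR) and 0.56 without replicate 1.

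Irf7 encodes the transcription factor that drives interferon alpha genes and is itself induced by interferon. The gene (chr7:141262706-141266481, minus strand) shares 45 exon bases with Phrf1 on the other strand, and the strand setting of the counting is not given in the sources used here. It measured 9.91, 6.55 and 13.6 CPM in C, 10.9, 12.3 and 10.6 CPM in H, 7.15, 14.1 and 13.9 CPM in CC_s and 8.31, 7.71 and 15.6 CPM in HC. CC_l mice had 7.97 and 12.8 CPM, HH mice 9.84 and 11.5 CPM, CCC mice 14.8 and 10.2 CPM, and HHC mice 82.1 and 15.2 CPM. Apart from the one HHC mouse, all 19 libraries lay between 6.55 and 15.6 CPM, and the log2 fold change was 0.17 ± 0.50 in H and 0.04 ± 0.61 in HH. The call in HHC (1.96 ± 0.63, adjusted p = 0.285 by edgeR) rested on that mouse, since the log2 fold change was 0.27 without it.

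Rtp4 encodes an interferon-induced protein that assists in the transport of G protein-coupled receptors. The gene (chr16:23520291-23614222, plus strand) shares 11.6% of its 50-base words with Gm45338 on the same strand. It stood at 10.8, 6.15 and 19.6 CPM in C and at 21.3, 47.6 and 24.7 CPM in H, without overlap, and the log2 fold change of 1.36 ± 0.50 missed the cut-off (adjusted p = 0.176 by edgeR). After WL, HC mice had 17.6, 5.54 and 16.3 CPM beside 9.26, 6.06 and 7.99 CPM in CC_s, and the groups overlapped. HH mice had 39.8 and 48.8 CPM against 7.97 and 9.03 CPM in CC_l. The log2 fold change of 2.38 ± 0.64 had the smallest adjusted p of the 9 genes in the 4 comparisons (adjusted p = 0.061 by edgeR). It was 2.30 without CC_l replicate 1, no longer past the cut-offs, and stayed past them without each of the other 3 mice (2.25 to 2.54). CCC mice had 22.2 and 9.60 CPM and HHC mice 33.8 and 18.2 CPM, which overlapped. Ranked by group mean, Rtp4 ran from HH (44.3 CPM) over H (31.2), HHC (26.0), CCC (15.9), HC (13.2), C (12.2) and CC_l (8.5) to CC_s (7.77), and each neighbouring pair overlapped.

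Differences between the effects were tested as interactions. The effect of H against C differed from that of HC against CC_s in 0 of the 9 genes at an adjusted p under 0.05, where 0% of all genes did so. The largest difference was that of Ifit2, whose log2 fold change was higher by 1.49 ± 0.84 in H than in HC (adjusted p = 0.507 by edgeR). For HH against HHC it was again 0 of 9, where 0.815% of all genes differed. Rsad2 had a larger effect in HH by 2.61 ± 1.13 (adjusted p = 0.279 by edgeR) and Irf7 a smaller one by 1.92 (log2 difference -1.92 ± 0.87, adjusted p = 0.298 by edgeR). Over the 9 genes, the median difference between HH and HHC was 0.71, against -0.01 over all genes. Without HHC replicate 1 it was 1.97, with 8 of 9 positive, against 0.20 over all genes, in a fit that leaves a single HHC mouse. The effects of H and HH differed in 0 of 9, where 0% of all genes did so, and 2 of the 9 had the larger fold change in H. At a nominal p under 0.05, edgeR gave 0, 2 and 0 of the 9 in these tests, and 2538, 3334 and 1242 of all 21464 genes. At an adjusted p under 0.05, DESeq2 gave 0 of 9 in each, and 400, 1215 and 39 of all genes. The loss of a call after WL was not shown to be a change in effect for any of the 9 genes. Between chow groups, 0 of 9 were called in CC_s against C, where 2.45% of all genes were called in either direction. In CCC against CC_l it was 0 of 9, where 2.66% were. By edgeR, 0 of 9 had a nominal p under 0.05 in either, against 2396 and 2472 of all 21464 genes. DESeq2 called 0 as well. The CCC mice nevertheless stood higher than the CC_l mice in 8 of the 9 genes by fold change. The median log2 fold change was 0.90, against -0.05 over all genes. It was 0.30 with 7 of 9 positive without CC_l replicate 1, against 0.02 over all genes. Both CCC mice lay above both CC_l mice in 4 of the 9, against 3773 of 21464 genes. In both chow comparisons age and the kind of chow differed together, so their parts cannot be told apart.

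The upstream part of the pathway was read from lists of related genes. Type I interferons themselves were at the limit of detection. The 14 genes summed to 0 to 0.987 CPM in the 20 libraries, where 3 counts correspond to 0.0815 to 0.251 CPM, only Ifnk passed the filter, and Ifnb1 had no count in any library. Of the 7 receptor and STAT genes, Ifnar2 rose in H (log2 fold change 1.03 ± 0.29, adjusted p = 0.0742 by edgeR). In HH both receptor chains rose and passed the adjusted threshold, Ifnar2 by 1.58 ± 0.36 (adjusted p = 0.0334 by edgeR) and Ifnar1 by 1.5 ± 0.37 (adjusted p = 0.0466 by edgeR). Ifnar2 stood at 23.0 and 26.8 CPM in CC_l and at 81.9 and 67.5 CPM in HH, and at 19.8 and 36.8 CPM in CCC and 37.1 and 38.4 CPM in HHC. In HC 0 of 7 were called by edgeR, 0 had a nominal p under 0.05, and DESeq2 called 0. DESeq2 called 0 of 7 in H and 2 in HH, and with each mouse left out in turn Ifnar2 stayed called by edgeR in 4 of 4 for HH and 3 of 6 for H, and Ifnar1 in 2 of 4 for HH.

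Among 13 nucleic acid sensors and adaptors, Tlr7, the endosomal sensor of single-stranded RNA, was called higher in H (2.15 ± 0.67), HC (2.12 ± 0.68) and HH (2.88 ± 0.85), and in none of these with an adjusted p under 0.05 by edgeR. It stayed called without each mouse in 3 of 6, 1 of 6 and 2 of 4. Its values were 1.06, 1.39 and 1.27 CPM in CC_s and 3.37, 5.38 and 7.53 CPM in HC, without overlap. Tmem173, which encodes STING, the adaptor of DNA sensing, rose in H from 6.97, 7.44 and 3.67 CPM to 19.3, 38.9 and 19.9 CPM (adjusted p = 0.117 by edgeR) and stayed called in 2 of 6. Tlr3, the sensor of double-stranded RNA, rose in HH by 1.71 ± 0.49 (adjusted p = 0.0818 by edgeR) and stayed called in 2 of 4. In HHC 0 of 13 were called by edgeR or DESeq2, and 0 had a nominal p under 0.05. Ube2l6, the conjugating enzyme for ISG15, rose in H (1.22 ± 0.40, adjusted p = 0.128 by edgeR) and in HH (1.81 ± 0.50, adjusted p = 0.0697 by edgeR), 1 of 4 genes of ISG15 conjugation in each. It stayed called in 1 of 6 and 2 of 4. In this list 0 of 4 were called in HC and HHC by edgeR or DESeq2 (1 and 0 with a nominal p under 0.05). Of 3 inhibitors, Socs1, Socs3 and Pias1, edgeR called 0 in each of the 4 comparisons, with 1 at a nominal p under 0.05 and 1 called by DESeq2, both in HHC.

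A further 43 interferon-stimulated genes were counted, of which 42 passed the filter. In H, 7 of 42 were called higher (3.57% of all genes) and 4 passed the adjusted threshold (2.12%), with a median log2 fold change of 0.98. Phf11d led (3.25 ± 0.70, adjusted p = 0.0224 by edgeR), before Ifitm3, which blocks viral entry at the membrane (2.65 ± 0.31, adjusted p = 0.000766 by edgeR), Ifi44 (2.47 ± 0.68) and Xaf1 (2.22 ± 0.34, adjusted p = 0.00456 by edgeR). These 4 and Lgals3bp stayed called without any 1 of the 6 mice. Ifitm3 stood at 45.9, 47.6 and 44.7 CPM in C and at 251, 358 and 260 CPM in H. In HH, 12 of 42 were called higher (4.92% of all genes) and 5 passed the adjusted threshold (2.07%), with a median of 1.48. Phf11d (3.51 ± 0.86), Oas1a (3.40 ± 1.09), Ifi44 (2.87 ± 0.86) and Ifitm3 (2.45 ± 0.37) had the largest fold changes. Phf11d and Ifitm3 stayed called without any 1 of the 4 mice, Ifi44 in 1 of 4 and Oas1a in 0 of 4, and without CC_l replicate 1, 3 of 42 were called. In HC, 1 of 42 was called, where 1.57% of all genes were called higher. It was Xaf1 (1.08 ± 0.33, adjusted p = 0.536 by edgeR), a gene that promotes cell death. Xaf1 had 17.6, 11.2 and 18.8 CPM against 7.41, 6.63 and 8.49 CPM in CC_s, and stayed called in 2 of 6 without 1 mouse. In HHC, 2 of 42 were called, where 0.447% of all genes were called higher. They were Bst2 (tetherin, which holds virus particles at the cell surface) and Dtx3l. Their log2 fold changes of 1.97 and 1.76 became 0.08 and 0.70 without HHC replicate 1. Over the list, without HHC replicate 1 it was 0 of 42 with a median of -0.43. The paralogs Ifit3b, Ifit1bl1 and Oasl1 were called in none of the 4 comparisons.

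HHC replicate 1 differed from HHC replicate 2 over most interferon genes. Its value was higher for all 9 type I interferon response genes, with a median ratio of 4.96, and for 38 of 42 other interferon-stimulated genes, with a median ratio of 2.75. The 19 genes of the interferon gamma response differed more. They were higher in replicate 1 for 18 of 19 genes, with a median ratio of 10.63 over the 18 with counts in both, and replicate 1 was the highest of all 20 libraries for 16 of 19. Iigp1, a GTPase that acts on vacuoles of parasites, stood at 711 CPM in replicate 1, 20.8 CPM in replicate 2, and 18.6 and 13.2 CPM in CCC. Ifng itself, the gene of interferon gamma, was at 3.69 CPM in replicate 1 and at 0 to 0.454 CPM in the other 19 libraries, and Socs1 was at 39.7 CPM against 0.431 CPM in replicate 2. Of the 19 genes, 8 were called higher in HHC, and 0 of 19 without replicate 1. In the other comparisons, 1 of 19 was called in H (Tgtp1), 0 in HC (0 at a nominal p under 0.05 in edgeR and 0 by DESeq2) and 2 in HH (Gbp2 and Jak2). Of all genes, 3.57% were called higher in H, 1.57% in HC, 4.92% in HH and 0.447% in HHC. Lymphocyte markers summed to 139 CPM in replicate 1 and 24.9 CPM in replicate 2, plasmacytoid dendritic cell markers to 18.8 and 3.45 CPM, macrophage markers to 1590 and 819 CPM, and endothelial markers to 71.0 and 88.5 CPM. Among lymphocyte markers Cd3e stood at 20.4 and 1.83 CPM and Cd8a at 12.9 and 1.18 CPM. Their part in the values of that mouse was not tested.

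**Figure D3:**
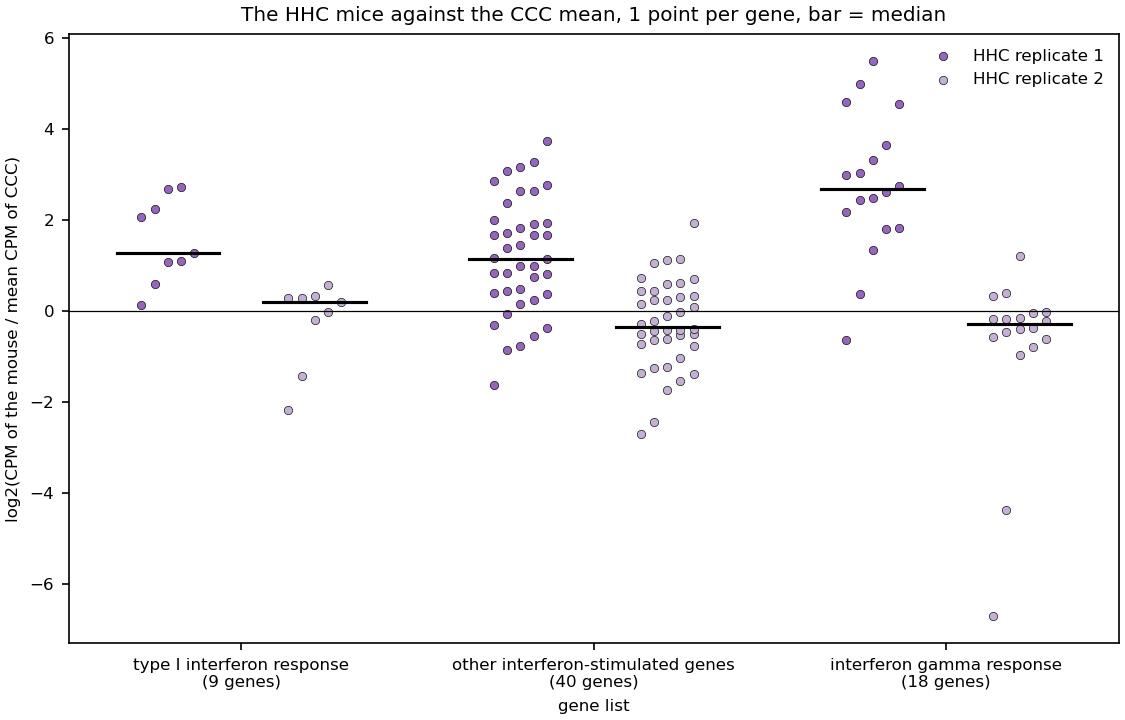
Log2 ratio of each HHC mouse to the mean CPM of the CCC mice, 1 point per gene with counts in both HHC mice, and a bar at the median of each list. Replicate 1 has medians of 1.28, 1.14 and 2.68 for the type I interferon response, the other interferon-stimulated and the interferon gamma response genes, and replicate 2 has 0.19, -0.36 and -0.30.

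Macrophage and endothelial markers rose in H and HH. The fold changes of the 9 genes were positive for all 9 in H and HH, and for 8 of 9 in HC and in HHC. Of 13 macrophage markers, 8 were called higher in H, 8 in HC and 12 in HH. In HHC 0 were called higher and 1, Cd163, lower. The share of all genes called higher was 3.57% in H, 1.57% in HC, 4.92% in HH and 0.447% in HHC. The summed macrophage markers were 257 to 445 CPM in C, 704 to 3820 in H, 276 to 351 in CC_s and 641 to 1670 in HC. In the long arm they were 274 and 447 CPM in CC_l, 3950 and 5320 in HH, 872 and 992 in CCC, and 819 and 1590 in HHC. Endothelial markers were called higher in H (3 of 5) and HH (5 of 5). In HC 0 of 5 were called, with a median log2 fold change of -0.03. In HHC they went the other way, with a median of -2.04 and 0 of 5 positive. There 1 was called lower, and 5 of 5 had a nominal p under 0.05 in edgeR, against 10.7% of all genes. Of 3 neutrophil markers tested, 1, S100a8, was called higher in H, and of 5 mesothelial markers 2 were called lower in H. Adipocyte progenitor markers were called higher in HC (1 of 5) and HH (2 of 5) and lower in HHC (1 of 5). Median log2 fold changes of the adipocyte markers were -0.18 in H, -0.56 in HC, -0.79 in HH and 0.50 in HHC, with 4, 3, 1 and 7 of 8 positive. Both HH mice lay below both CC_l mice in 6 of these 8, against 6199 of 21464 genes, with 0 of 8 called. Over the 20 libraries the mean z-score of the 9 genes had a Spearman correlation of 0.802 with the summed macrophage markers and of -0.254 with the summed adipocyte markers, as a description over libraries that share groups and scaling. The part of macrophage mRNA in the values of the 9 genes was not tested. In HC the macrophage markers were called in 8 of 13 while the 9 genes were called in 0 of 9, and that difference was not tested either.

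**Figure D4:**
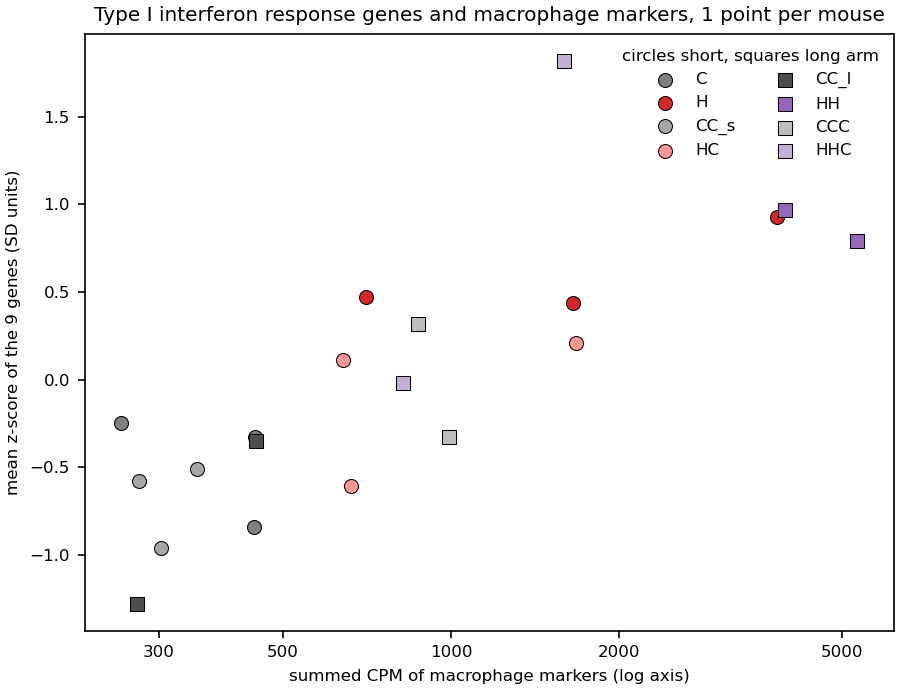
Mean z-score of the 9 genes against the summed CPM of 13 macrophage markers (log axis), 1 point per mouse. The C, CC_s and CC_l mice sit at the left, the CCC mice at 872 and 992 CPM, the HH mice at 3950 and 5320 CPM, and HHC replicate 1 lies above the others, with the highest score, 1.82, at 1590 CPM.

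Across the 20 libraries the 9 genes varied together to differing degrees. Over their 36 pairs, the Spearman correlation ranged from -0.236 to 0.848 with a median of 0.562, as a description over libraries that share group and depth. Rtp4 (0.913), Ifit1 (0.866), Ifit2 (0.85) and Isg15 (0.833) followed the mean of the other 8 most closely, and Rsad2 (0.335) and Irf7 (0.329) least. The genes outside the list whose pattern was most like the mean z-score of the 9 were Irgm1 (0.92), Phf11b (0.898), Sash3 (0.877), Milr1 (0.877) and Timp1 (0.875), by Spearman correlation over 20 libraries.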

How the data were processed

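The authors trimmed reads with Trim Galore 0.6.6, aligned them to mm10 with HISAT2 2.2.1 and counted them on genes with featureCounts (Subread 2.0.1), per the labels' processing notes, and deposited raw counts per gene and mouse. The annotation, strand setting and handling of read pairs are not given in the sources used here, and most low counts were even (89.6% to 95.8%). Symbols came from GENCODE vM21 (45229 of 46078 genes, 98.2%). After filterByExpr and TMM scaling, the quasi-likelihood test of edgeR 4.0.16 (R 4.3.3) was run on all 20 libraries in 8 groups. Calls used the study's cut-offs (nominal p below 0.01, log2 fold change of 1 or more in size). Alternatives were DESeq2 1.42.0, RLE scaling, no filter, a fit of only the compared groups, the likelihood ratio test, a replicate block, an adjusted p, leaving out each mouse and, added after the data had been seen, halved counts. The procedure was tested on simulated data. The 9 genes and all lists were chosen with earlier results of these data known. Named genes of the other lists were at most 4 called genes with the largest fold change per list and comparison, genes needed for the order of the pathway, paralogs, and the 5 most similar genes, to which Cd3e, Cd8a, Ifng and Socs1 were added after their values had been seen. A value of 0 counts was given a limit of 3 counts, which covers counting error only. Values of 1 listed gene are not reported here.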

Additional observations from a re-analysis of the deposited data

How the results depend on the processing

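With an adjusted p under 0.05, the type I interferon response genes called were 0 in H, HH and HHC (2, 3 and 1 with the nominal cut-offs), and the other interferon-stimulated genes numbered 4 in H, 0 in HC, 5 in HH, with 0 left in HHC (7, 1, 12 and 2). RLE scaling gave 1 of the 9 in H. Without the filter, 5 of the 9 were called in HH, 1 had a different effect in HH and HHC, and 0 and 7 of the other genes were called in HC and HHC. Over all genes, 2879 of 34443 were then called in HH in either direction, against 1458 of 21464 with the filter. The effect differed between HH and HHC in 1266 of 34443 genes, against 175 of 21464 with the filter. DESeq2 called 2 of the others in HC and 8 in HHC, the likelihood ratio test 4 in HHC and halved counts 4 in HHC. Over all genes in HHC, DESeq2 called 1185 and the likelihood ratio test 1190, against 669 in the quasi-likelihood test. When the fit held just the groups compared, 1 of the 9 was called in H and 0 in HHC, and 0 of the others in HC and 1 in HHC.

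Whether replicate numbers paired the mice could not be decided, since deviations from a group mean sum to 0 within each group. Deviations of same-numbered mice correlated at -0.28 to 0.19. In HH and HHC the values for same and different numbers were mirror images (-0.19 and 0.19, -0.26 and 0.26), which the centering forces. With the replicate number as a block, 1 of the 9 was called in H, 1 in HH and 0 in HHC. Of the other genes, 0 were called in HC and 0 in HHC under the block.

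Leaving out 1 mouse gave 0 to 1 of the 9 for H, 0 for HC, 0 to 3 for HH and 0 to 2 for HHC. For the other genes the ranges were 5 to 9, 0 to 3, 3 to 11 and 0 to 12. The count of 0 came without H replicate 1, H replicate 2 or C replicate 2 in H and without CC_l replicate 1 in HH, and a single mouse is then assumed to vary like the other groups. Fold changes reversed, over ranges of -0.18 to 0.70 for Ifit3 in H, -0.06 to 0.45 for Irf7 in H, -0.13 to 0.64 for Ifit2 in HC, -0.56 to 0.03 for Irf7 in HC, -0.84 to 1.22 for Rsad2 in HC (and -0.04 with halved counts), and -0.26 to 0.45 for Irf7 in HH. In HHC they ran from -0.20 to 2.23 for Ifit1, -0.03 to 3.80 for Isg15, -1.45 to 1.28 for Oasl2 and -2.19 to 0.12 for Rsad2, each with its lowest value without HHC replicate 1. None of these fold changes was called with all mice in the fit. The cause was not tested where more than the number of genes or mice changed. The biological coefficient of variation was 0.68 with 2 or 3 mice a group. At these depths 3 counts are 0.0815 to 0.251 CPM, and the type I interferon genes lay near that limit.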
